A study of Caenorhabditis elegans with 2 samples.

Results

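The strongest 573 of 5735 replicated peaks of CRH-2, ranked by the authors' pooled signal, were examined. In the nematode Caenorhabditis elegans, CRH-2 is one of the CREB-related transcription factors, which carry a basic leucine zipper (bZIP). Chromatin immunoprecipitation and sequencing (ChIP-seq) was done on whole L2 larvae of mixed sex, in 1 group of 2 biological replicates with no other condition. Both replicates were strain OP425, which is mutant for unc-119 (allele tm4063, on III) and carries wgIs425, an integrated transgene that encodes CRH-2 with GFP and FLAG at its C-terminus. The transgene is 1 line, and whether the animals also keep untagged CRH-2 is not given in the sources used here. Whole larvae were sonicated, so signal in few cells and weak signal in many cells cannot be told apart.

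Membership was read from the signal column alone. The pooled signal ran from 243 to 1625 in the strong peaks, with a median of 323, and from 62.3 to 243 in the other 5162, with a median of 96.6. These values chose the peaks and carry no test. Just inside the boundary lay the promoter peaks of famh-136 (243.2), acs-7 (243.0) and gei-4 (242.9). Just outside lay a non-coding exon nearest to the 5′ end of ppfr-1 (242.8), an intron nearest to daf-5 (242.6) and the promoter of nol-56 (242.5), so the boundary cuts a continuous scale. The read depth is unknown. A control library was not analysed here, and binding cannot be told apart from signal that open chromatin gives by itself.

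CREB-type bZIP factors bind DNA as dimers, and the classical target of the family is the palindrome TGACGTCA or its core TGACG. The related CREB3 and XBP1 factors, which act in the response to unfolded proteins in the endoplasmic reticulum (ER), recognise TGACGTGG. The ER folds secreted and membrane proteins, and genes for its chaperones, its import channel and its export vesicles are often controlled together.

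The sequences below are those of the strongest peaks that held a motif found more often in strong than in other peaks. Each is the plus strand of the ce11 build, 50 bp to each side of the summit, and each was read from the RefSeq sequence of the same assembly. In the first 4, capitals mark TGACGTGG or its reverse complement.
Y25C1A.8 promoter, chrII:3077074-3077174: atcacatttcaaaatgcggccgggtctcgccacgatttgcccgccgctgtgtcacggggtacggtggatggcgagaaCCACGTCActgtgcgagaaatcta
crt-1 promoter, chrV:6100771-6100871: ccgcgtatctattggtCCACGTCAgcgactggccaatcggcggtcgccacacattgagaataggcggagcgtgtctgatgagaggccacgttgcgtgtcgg
intron, nearest 5′ end fkh-7, chrIV:5593980-5594080: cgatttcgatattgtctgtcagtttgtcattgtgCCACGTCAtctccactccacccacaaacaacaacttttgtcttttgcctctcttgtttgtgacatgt
intron, nearest 5′ end ncl-1, chrIII:7728714-7728814: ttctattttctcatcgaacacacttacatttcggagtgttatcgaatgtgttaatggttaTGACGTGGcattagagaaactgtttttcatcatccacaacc

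In the next pair of windows, capitals mark the palindrome TTGCGCAA, the site of C/EBP-type bZIP factors.
zfp-1 promoter, chrIII:8802073-8802173: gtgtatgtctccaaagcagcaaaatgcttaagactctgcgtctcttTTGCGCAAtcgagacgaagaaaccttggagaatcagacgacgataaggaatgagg
non-coding exon, nearest 5′ end cmd-1, chrV:1151439-1151539: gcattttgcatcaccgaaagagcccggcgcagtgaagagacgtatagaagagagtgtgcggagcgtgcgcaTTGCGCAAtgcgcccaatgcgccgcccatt

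In the following pair, capitals mark the E-box CACGTG.
intergenic, nearest 5′ end C34B4.2, chrV:13081273-13081373: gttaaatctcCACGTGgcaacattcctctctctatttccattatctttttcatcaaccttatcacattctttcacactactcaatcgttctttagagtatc
non-coding exon, nearest 5′ end nhr-31, chrIV:8028480-8028580: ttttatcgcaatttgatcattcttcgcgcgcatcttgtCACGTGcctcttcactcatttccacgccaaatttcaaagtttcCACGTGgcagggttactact

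The 5 strongest peaks in no promoter window were all on X, and 3 of their windows held GCGCAGGG, a sequence picked after the windows had been read, which is in capitals on either strand. In worms this sequence is the core of an X-enriched motif at sites that recruit the dosage compensation complex, which lowers X-linked expression in hermaphrodites. The windows nearest to K02D3.1 and ZK899.6 held no exact copy.
intergenic, nearest 5′ end W02H3.3, chrX:11094140-11094240: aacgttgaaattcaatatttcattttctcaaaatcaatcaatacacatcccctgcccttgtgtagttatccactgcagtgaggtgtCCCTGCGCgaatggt
intergenic, nearest 5′ end K02D3.1, chrX:13700809-13700909: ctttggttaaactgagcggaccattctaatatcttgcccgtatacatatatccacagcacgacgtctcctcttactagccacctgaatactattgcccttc
intergenic, nearest 5′ end ZK899.6, chrX:9465813-9465913: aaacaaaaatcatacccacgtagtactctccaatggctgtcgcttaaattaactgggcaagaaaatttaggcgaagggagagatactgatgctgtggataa
intron, nearest 5′ end Y41G9A.17, chrX:2997057-2997157: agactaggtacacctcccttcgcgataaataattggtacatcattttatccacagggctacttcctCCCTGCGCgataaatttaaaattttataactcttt
intergenic, nearest 5′ end xol-1, chrX:8036387-8036487: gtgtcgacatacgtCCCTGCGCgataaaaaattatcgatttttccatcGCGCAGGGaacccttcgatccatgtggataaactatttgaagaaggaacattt

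The last windows are those of the 3 strongest peaks at ribosomal protein genes, with AGCGTGTT, a sequence picked after the windows had been read, in capitals where present.
rpl-3 promoter, chrIII:3867522-3867622: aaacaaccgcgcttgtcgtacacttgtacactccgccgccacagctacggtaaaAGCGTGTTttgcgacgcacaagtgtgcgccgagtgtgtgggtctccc
rpl-20 and Y17G9B.5 promoter, chrIV:4750013-4750113: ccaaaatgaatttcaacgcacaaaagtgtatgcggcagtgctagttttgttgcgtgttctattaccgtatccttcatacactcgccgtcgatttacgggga
rpl-35 promoter, chrIII:7854649-7854749: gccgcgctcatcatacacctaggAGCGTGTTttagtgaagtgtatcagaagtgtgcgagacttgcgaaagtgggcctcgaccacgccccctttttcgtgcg

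The strong peaks were ranked high in both replicates. For each peak, the strongest region of a replicate that overlapped it was taken, and its signal was divided by the median of that replicate over all peaks. This relative signal is 1 at the median peak. In replicate 1 the relative signal of the strong peaks ran from 1.77 to 16.8 with a median of 3.14, and in replicate 2 from 1.38 to 15.3 with a median of 3.02. Their median rank was 286 in replicate 1 and 285.5 in replicate 2. Of the 573, 517 were among the strongest 573 regions of replicate 1, 507 among those of replicate 2, 456 (79.6%) among both and 5 among neither. The replicates differed by no more than 2-fold at 571 strong peaks (99.7%) and at 93.2% of the other peaks, and the SD of their log2 ratio was 0.30 and 0.53. The pooled signal is made from both replicates, so these ranks are a description and not an independent check.

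The peaks were also chosen on 1 replicate and read in the other. Only peaks that the IDR procedure kept for their agreement between replicates entered this choice, so part of the agreement is given beforehand and no test was made. The 573 peaks with the highest signal in replicate 1 had a median relative signal of 3.02 in replicate 2, against 0.945 for the rest. The 573 chosen on replicate 2 had a median of 3.18 in replicate 1, against 0.941 for the rest. In either direction 459 (80.1%) of the peaks chosen on 1 replicate were also chosen on the other. At the low end, a peak chosen on replicate 1 had a relative signal of 0.915 in replicate 2 (rank 3254), and one chosen on replicate 2 had 0.649 in replicate 1 (rank 5208).

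**Figure D1:**
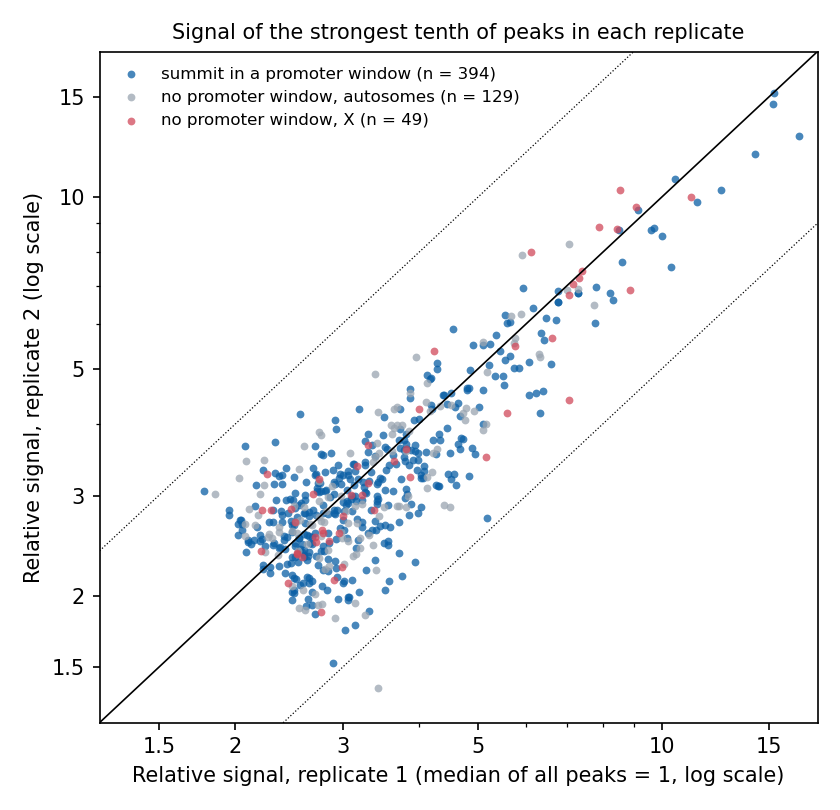
Relative signal of each strong peak in replicate 1 (x axis, log scale) and replicate 2 (y axis, log scale), coloured by position. The solid line is equality and the dotted lines are 2-fold differences. The peak at acin-1 and cdc-6 has no overlapping region in replicate 2 and is not drawn, and only the intergenic peak nearest to Y39E4B.6 lies beyond the lower dotted line.

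The replicates disagreed most at a few of the weaker strong peaks. Only 3 fell outside the strongest 2 times 573 regions of a replicate. The intergenic peak at III 13068429 to 13068524, nearest to Y39E4B.6, had a relative signal of 3.43 in replicate 1 (rank 227) and 1.38 in replicate 2 (rank 1632). The promoter shared by acin-1 and cdc-6, a licensing factor of DNA replication, had 1.77 in replicate 1 (rank 1019) and no overlapping region in replicate 2. The promoter shared by klc-1, a kinesin light chain, and let-70, a ubiquitin-conjugating enzyme, had 2.89 (rank 350) and 1.52 (rank 1362). All 3 were lower in replicate 2 or unmeasured there.

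Other peaks leaned to replicate 1 at drap-1 (5.18 and 2.74), at sft-4 (3.14 and 1.78) and in an intergenic region nearest to cec-1 (3.26 and 1.85). The 5 that leaned most to replicate 2 were the promoter of haf-3 and F57A10.2 (2.07 and 3.66), the promoter of lec-6, a galectin (1.78 and 3.06), an intron nearest to unc-43, the calcium/calmodulin-dependent kinase II (2.08 and 3.44), an intergenic region nearest to R06C1.4 (1.85 and 3.02) and the promoter of ufbp-1 (2.55 and 4.16). These ratios were picked as extremes and say nothing of a typical peak.

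Strong peaks lay in promoters more often than the other peaks. Promoter windows reached 1000 bp upstream and 250 bp downstream of the 5′ ends annotated for protein-coding transcripts, and a summit inside one was called a promoter summit. This held for 395 strong peaks (68.9%, Wilson 95% interval 65.0 to 72.6) and for 2914 of the other 5162 (56.5%, 55.1 to 57.8), which gave odds 1.71 times as high (95% interval 1.42 to 2.06, adjusted p = 4.33e-08 by Fisher's exact test). Introns held 49 strong summits (8.55% against 13.9%, odds ratio 0.582, Fisher's exact adjusted p = 0.000948). Intergenic sequence held 106 (18.5% against 22.2%, odds ratio 0.795, Fisher's exact adjusted p = 0.0599) and non-coding exons 19 (3.32% against 4.67%, Fisher's exact adjusted p = 0.196), neither past the threshold. Coding exons held 1 strong summit against 69 of the others (Fisher's exact adjusted p = 0.0200) and 3′ UTRs 1 against 60 (Fisher's exact adjusted p = 0.0494). With the strong peaks chosen on either replicate alone, the calls for coding exons and 3′ UTRs were lost. Among the strongest twentieth of peaks the call for introns was lost (odds ratio 0.638, Fisher's exact adjusted p = 0.0942). Peaks of 1 genome are not biological replicates, so these p-values describe the lists.

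**Figure D2:**
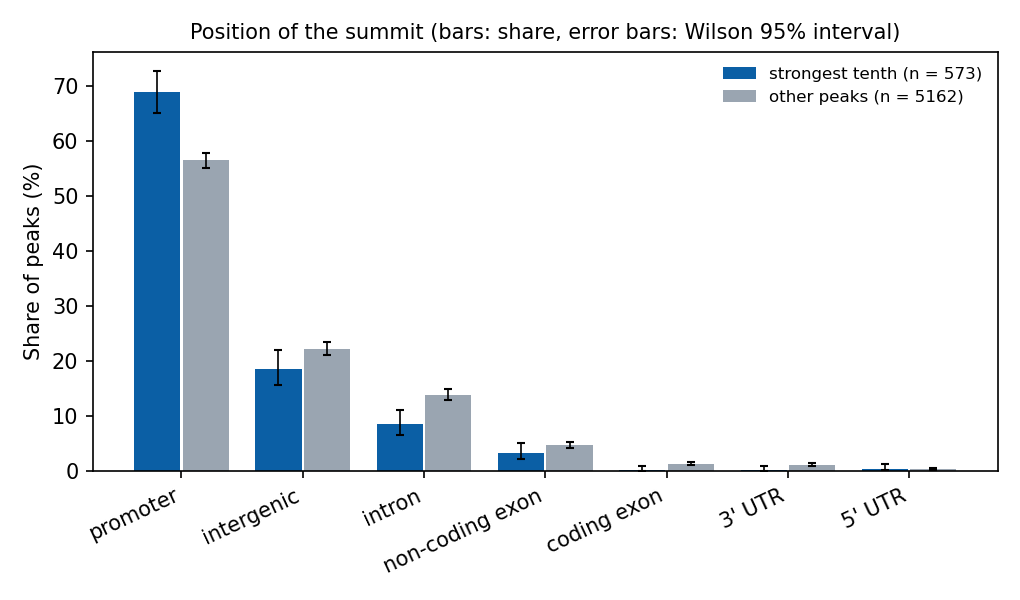
Share of summits by annotated position (x axis) for the 573 strong peaks and the other 5162 (y axis, percent), with Wilson 95% intervals as error bars. The promoter share is 68.9% against 56.5%, and the intron share 8.55% against 13.9%.

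Within promoters, the strong summits lay mostly upstream. The median distance to the nearest 5′ end was 217 bp (quartiles 116 to 334), against 193 bp for the other promoter peaks. Upstream of that end lay 375 of 395 strong promoter summits (94.9%), against 91.0% of the others. The window reaches 1000 bp upstream but 250 bp downstream, so an upstream majority follows in part from its shape. A summit in the windows of more than 1 gene was common. It was so at 154 of 395 strong promoter peaks (39.0%) and at 22.99% of the others. At 141 of them the windows belonged to 2 genes and at 13 to 3, and such a summit does not tell which gene is the target.

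Most strong peaks were narrower than the other peaks, and their GC content was higher. The commonest width, 376 bp, was that of 100 strong peaks (17.5%) and of 97.2% of the others. The strong peaks had a median width of 201 bp (quartiles 167 to 301, range 94 to 555), and 454 were narrower than 376 bp. A few were wider, 19 strong peaks (3.32%) against 3 of the others. Among these were puf-9 and hsp-3 (420 bp each), the peak nearest to W02H3.3 (512 bp) and that nearest to xol-1 (555 bp). Width comes from the same peak calls as the signal, so no test was made. With all peaks ordered by signal and cut into 10 groups of equal size, the mean GC content within 50 bp of the summit was 48.4% in the first group, the strong peaks, and 40.7% in the weakest group. The promoter share was 68.9% and 49.5% in these groups.

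**Figure D3:**
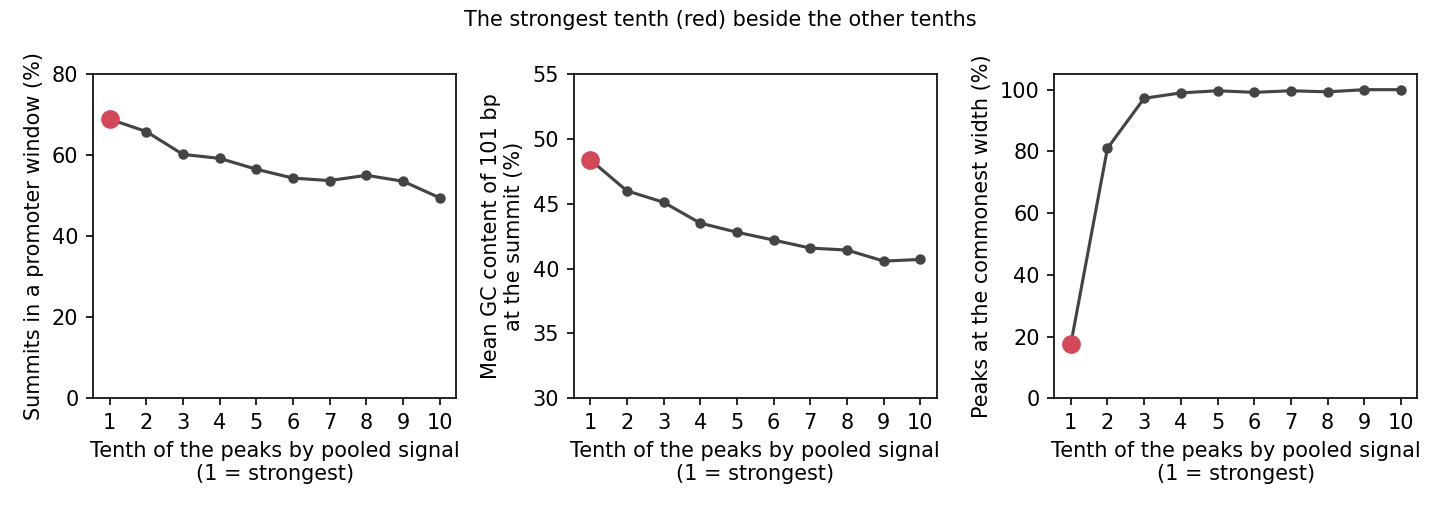
Share of promoter summits, mean GC content at the summit and share of peaks at the commonest width (y axes, percent) over 10 groups of equal size of the replicated peaks by pooled signal (x axis, 1 is the strongest). Group 1, the strong peaks in red, has 68.9% promoter summits, 48.4% GC and 17.5% of peaks at the commonest width.

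No chromosome passed the test of its share of strong peaks. Chromosome I held 113 of them (19.7% against 15.5% of the others, odds ratio 1.34, 95% interval 1.08 to 1.67, Fisher's exact adjusted p = 0.0668). Chromosome III held 20.1% against 16.4% (odds ratio 1.28, 95% interval 1.03 to 1.59, Fisher's exact adjusted p = 0.102) and X held 110 (19.2% against 20.5%, odds ratio 0.923, Fisher's exact adjusted p = 0.597). There were 73 on II, 87 on IV and 75 on V. The middle part of each chromosome, with its length divided by 3, held 42.6% against 45.2% (Fisher's exact adjusted p = 0.350). Chromosome I passed when the strong peaks were chosen on replicate 1 alone (odds ratio 1.43, Fisher's exact adjusted p = 0.0119) or on replicate 2 alone (1.39, Fisher's exact adjusted p = 0.0264). It also passed with overlapping peaks merged into 1 (1.38, Fisher's exact adjusted p = 0.0341), and chromosome III passed with 2 times as many peaks taken (1.26, Fisher's exact adjusted p = 0.0492). On the autosomes 129 of 463 strong peaks (27.9%) lay outside promoter windows against 41.2% of the others (odds ratio 0.5503, Fisher's exact adjusted p = 1.06e-07). On X it was 49 of 110 (44.5%) against 52.5% (odds ratio 0.727, Fisher's exact adjusted p = 0.159). The value on X depended on the promoter window. With 500 bp upstream and 100 bp downstream it was 0.604 and passed (Fisher's exact adjusted p = 0.0193), and with 2000 bp and 500 bp it was 1.03 (Fisher's exact adjusted p = 0.918). With the longer window intergenic summits on X were more frequent among strong peaks (odds ratio 1.68, Fisher's exact adjusted p = 0.0443), against 1.25 with the main window (Fisher's exact adjusted p = 0.313). The odds ratios of X and the autosomes differed by a factor of 1.32, with a 95% interval of 0.843 to 2.07 that includes 1, so a difference between them was not shown. This comparison was added after the data were seen.

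The X chromosome held the top of the peaks outside promoters. Of the 10 strongest such peaks 8 were on X, of the 20 strongest 13, of the 50 strongest 18, and of all 178, 49 (27.5%). Among the 2248 other peaks outside promoters, 555 were on X. The cuts use the signal that chose the peaks, so they carry no test. The peak nearest to W02H3.3 had a relative signal of 11.2 in replicate 1 and 10.02 in replicate 2. The one nearest to K02D3.1 had 8.56 and 10.3, and the one nearest to ZK899.6 had 9.08 and 9.61. The intron peak nearest to Y41G9A.17 had 8.45 and 8.78. The peak at X 8036135 to 8036689, nearest to xol-1, the master switch of sex determination and dosage compensation, had 7.89 and 8.88. All 5 were between ranks 7 and 22 in both replicates. Strong peaks on X outside promoters were wide, with a median of 333 bp, against 221 bp outside promoters on the autosomes and 190 bp in promoters.

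The sequence GCGCAGGG, shown above, was searched for after these windows had been read, so its counts carry no test. It occurred in 12 strong windows, all on X, and in 6 of the other 5162. Outside promoters on X it was in 9 of 49 strong windows (18.4%) and in 1 of 555 others (0.180%). Of the 8 strongest peaks of that group 6 held it. On the autosomes it was in 0 of 463 strong windows, although the sequence itself occurs there 233 times (2.82 per Mb), and on X 81 times (4.57 per Mb). The 12 strong peaks with it had a median relative signal of 7.37 in replicate 1 and 7.03 in replicate 2. The medians of all strong peaks were 3.14 and 3.02, but the sequence was picked from some of the strongest windows, so this difference follows in part from the choice. They included promoter peaks of nspc-17 (8.50 and 8.78), the insulin-like peptide gene ins-39 (4.52 and 4.54), and R04E5.9 with cnnm-2 (3.52 and 2.05).

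On the other chromosomes the strongest peaks outside promoters lay in introns, intergenic sequence and a non-coding exon. On IV the strongest lay in an intron nearest to daf-14, a SMAD of the dauer pathway (relative signals 7.04 and 8.26). On III it lay in an intron nearest to Y111B2A.12 (7.76 and 6.47) and on II in intergenic sequence nearest to the insulin-like peptide gene ins-13 (7.0001 and 6.89). On V it lay in a non-coding exon nearest to Y116F11B.14 (5.87 and 6.23), and on I in an intron nearest to ppfr-1 (6.32 and 5.26). Annotated small RNA genes were counted near the strong summits outside promoters. A tRNA gene lay within 500 bp of 7 of the 178 strong summits outside promoters (3.93%) and of 7.21% of the others. For snRNA genes it was 4 (2.25% against 0.801%), for microRNA genes 2 (1.12% against 1.07%), for piRNA genes 9 (5.06% against 4.23%) and for snoRNA genes 1 (0.562% against 2.98%). None of these was tested.

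CREB-type and E-box sequences were more frequent at strong summits. TGACGTGG occurred within 50 bp of 30 strong summits (5.24%) and of 2.05% of the others (odds ratio 2.64, 95% interval 1.74 to 3.99, Fisher's exact adjusted p = 0.000125). In windows 300 bp to the side it was also more frequent for strong peaks, at 0.698% against 0.184% for the others, which was not tested. The core TGACG, which TGACGTGG contains, was at 168 (29.3% against 20.7%, odds ratio 1.59, Fisher's exact adjusted p = 2.47e-05). The E-box CACGTG was at 65 (11.3% against 6.92%, odds ratio 1.72, Fisher's exact adjusted p = 0.000694), and the palindrome TTGCGCAA at 9 (1.57% against 0.232%, odds ratio 6.85, Fisher's exact adjusted p = 0.000296). With only the strongest 0.5 of the group taken, CACGTG (1.45, Fisher's exact adjusted p = 0.208) and TTGCGCAA (4.53, Fisher's exact adjusted p = 0.0601) lost the call. The palindrome TGACGTCA was at 10 (1.75%, odds ratio 1.41, 95% interval 0.722 to 2.77, Fisher's exact adjusted p = 0.529) and TGACGTGT at 12 (2.09%, odds ratio 1.92, Fisher's exact adjusted p = 0.140), and neither passed. Nor did the repeat GAGAGAGA (6.63%, odds ratio 1.04), the GC box GGGCGG (5.24%, odds ratio 1.37), TGACTCA (0.698%, odds ratio 0.608) or TTACGTAA and the composition controls CTACGTAG and AGTCGACT, which were in 0 strong windows.

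The motifs were spread over genes of several kinds. TGACGTGG was in the windows of Y25C1A.8 (relative signals 10.01 and 8.54), the ER chaperone gene crt-1, which encodes calreticulin (10.4 and 7.56), mcu-1, the mitochondrial calcium uniporter (4.85 and 4.98), erd-2.1, a receptor that returns proteins to the ER (4.67 and 3.61), and rab-1 with C39F7.5 (4.63 and 3.70). It was at 12 of 129 strong peaks outside promoters on the autosomes (9.30%) and at 16 of 334 in autosomal promoters (4.79%), a difference that was not tested. The other peaks had the same lean, with 62 of 1693 (3.66%) and 35 of 2412 (1.45%). TTGCGCAA was in the windows of pdi-6, a protein disulfide isomerase (5.54 and 5.19), zfp-1 (4.55 and 5.87) and unc-32, a V-ATPase subunit (2.64 and 2.76). CACGTG passed among peaks outside promoters alone (odds ratio 2.87, Fisher's exact adjusted p = 2.83e-05) and did not among promoter peaks alone (1.25, Fisher's exact adjusted p = 0.603). TGACG passed among promoter peaks (1.68, Fisher's exact adjusted p = 0.000109) and did not outside them (1.34, Fisher's exact adjusted p = 0.309). For neither sequence were the odds ratios inside and outside promoters compared by a test, so a difference between them was not shown. None of TGACGTGG, TTGCGCAA or GATAAG was in any of the 34 strong windows at ribosomal protein genes, nor in the 35 weaker ones. At the 361 other strong promoters they were in 4.71%, 2.22% and 5.82%, so their absence from 34 windows shows little. TGACG was in 1 of the 34 and in 6 of the 35 weaker ones, against 34.1% of the other strong promoters. None of this was tested.

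The GATA site was less frequent at strong summits than at the other summits. GATAAG, the site of factors such as the intestinal regulator ELT-2, was at 32 strong summits (5.58%) against 13.99% of the others (odds ratio 0.364, 95% interval 0.252 to 0.524, Fisher's exact adjusted p = 1.19e-08). In windows 300 bp to the side it was at 3.93% for strong peaks and 4.204% for the others, which was not tested. Strong summits were thus not below their flanks, and the other summits were above theirs. The GC content of the summit windows moved with the difference between strong and other summits, with a median of 48.5% in strong and 42.6% in other peaks. Within bins of GC content, an analysis added after the data were seen, the odds ratio was 0.624. It passed in the family of motifs (Cochran-Mantel-Haenszel chi-square test, adjusted p = 0.0429). In the family of 2080 sequences of 6 bases the same site did not pass (Cochran-Mantel-Haenszel chi-square test, adjusted p = 0.250). A lower frequency beyond GC content thus depended on the family of tests. Within these bins TGACGTGG had 2.78, TGACG 1.54, CACGTG 1.79 and TTGCGCAA 6.20, and each passed in the family of motifs.

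Across all 2080 sequences of 6 bases, each counted with its reverse complement, 171 (8.22%) were more and 116 (5.58%) less frequent at strong summits (Fisher's exact test, adjusted over all of them). TGATAA, which overlaps the GATA site, had the smallest p of all (6.81% against 19.99%, odds ratio 0.292, Fisher's exact adjusted p = 7.19e-14). Rarer sequences had lower odds ratios, down to 0.170 for AACCGG (0.349% against 2.01%, Fisher's exact adjusted p = 0.0166). Of those more frequent, CGTGGC had the smallest p (19.4% against 8.10%, odds ratio 2.73, Fisher's exact adjusted p = 1.69e-12) and ACGTGG was at 18.5% against 8.85% (odds ratio 2.34, Fisher's exact adjusted p = 5.71e-09). Both overlap TGACGTGG. The highest odds ratio was that of ATCCAC (5.58% against 1.55%, odds ratio 3.76, Fisher's exact adjusted p = 1.9e-06). ACGCAG was at 23.6% of strong summits and 12.8% of the others. The longer GAGACGCAG, put together after these results were seen and counted without a test, was at 76 strong summits (13.3%) and 6.78% of the others. Within bins of GC content only 32 were more and 5 less frequent, of which 31 and 1 were also called above. By the Cochran-Mantel-Haenszel chi-square test CGTGGC (odds ratio 2.13, adjusted p = 1.12e-07) and ACGTGG (2.34, adjusted p = 2.53e-09) passed, and TGATAA did not (0.576, adjusted p = 0.0847).

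The strong promoter peaks lay at 557 of 19973 protein-coding genes (2.79%). A peak of any strength lay at 3857 genes (19.3%), and 14.4% of these had a strong one, the share against which each list below is read. Of the 557 genes, 172 were in the lists and 145 had a sequence name alone. The lists were chosen with earlier results in view and carry no test. Cytosolic ribosomal proteins had the most genes with a strong peak, 36 of the 72 that had any. In share, genes of protein entry into the ER, of the unfolded protein response and of ER folding were close to them. The median pooled signal over all genes with a peak was 116. Some counts depended on how genes were assigned. With each peak given only to its nearest 5′ end, 12.7% of genes with a peak had a strong one. Ribosomal protein genes then had 23 of 44, translocon genes 5 of 10, cytosolic chaperones 3 of 18, Rab and endosomal genes 7 of 34, lysosome genes 3 of 29 and histones 1 of 9. In the other direction, bZIP factors had 8 of 22 and nuclear hormone receptors 11 of 82. The insulin pathway had 4 of 12, bHLH factors 5 of 9, autophagy and TOR genes 6 of 20, and neuropeptides and insulin-like peptides 3 of 15. Not every shared window is named below. A gene outside the list shared 5 of the 8 strong peaks at translation factors, 5 of 7 at translocon genes and 8 of 10 at cytosolic chaperones. It was so at 9 of 14 peaks of Rab and endosomal genes and at 4 of 9 of oxidative phosphorylation genes.

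Ribosomal protein genes were represented on both subunits. Their 36 genes shared 34 strong peaks, and the pooled signal of all 72 had a median of 242. Beyond the 20 strongest promoter peaks, rps-20 had relative signals of 5.93 and 6.93 in replicates 1 and 2, in a window shared with ekl-4. The peak of rpl-12, shared with lin-54, had 6.45 and 6.15, and that of rps-12, shared with ska-3, had 6.72 and 6.10. The peak of rps-19 was shared with hsr-9 and had 6.34 and 5.78. At 23 of the 34 peaks a gene that is not ribosomal shared the window, and 10 had no other gene. Over the 34 the relative signal ran from 2.097 to 12.5 in replicate 1 and from 2.05 to 10.8 in replicate 2. The sequence AGCGTGTT, shown above and picked after reading these windows, was in 3 of the 34 and in 0 of the 35 weaker windows at ribosomal protein genes. It was also in 9 of 361 strong and 16 of 2879 weaker windows at other promoters, so most windows with it were not at ribosomal protein genes.

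Other genes of translation were less uniform. Translation factors had 8 of 30 (26.7%). Among them eef-1A.1, the elongation factor that brings tRNAs to the ribosome, had relative signals of 4.28 and 5.13, the gamma subunit gene eef-1G had 4.63 and 4.36, the translocation factor gene eef-2 had 4.94 and 3.55, and the initiation factor gene eif-3.C had 3.87 and 4.44. Mitochondrial ribosome and import genes had 6 of 40, close to the share of all genes, with the import receptor gene tomm-20 first (3.19 and 4.25), then ddp-1, mrpl-28 and mrpl-55. Aminoacyl-tRNA synthetases, which charge tRNAs, had 0 of 13.

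Genes of the ER made up a second group. ER chaperones and oxidoreductases had 8 of 20. Beyond hsp-3, pdi-3 and crt-1, these included pdi-6 and uggt-1, a sensor of misfolded glycoproteins (6.33 and 4.18). The ER HSP90 gene enpl-1, shared with imp-2, had 4.68 and 4.13, and the disulfide isomerase gene pdi-2 had 2.65 and 2.80. The unfolded protein response had 4 of 9 (44.4%), xbp-1, serp-1.1, tmbi-4 (2.79 and 2.89) and the bZIP factor gene atf-4 (2.97 and 2.63). ER-associated degradation, which exports misfolded proteins for destruction, had 2 of 12 (16.7%), cdc-48.1 and ubql-1, whose window is shared with pdi-3.

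The path into and out of the ER was well represented. Genes of the translocon and signal sequence processing had 8 of 15 (53.3%). The channel subunit gene sec-61.G had relative signals of 6.42 and 5.61. A second channel subunit, sec-61.B, shared its peak with the translocon-associated gene trap-3 (4.51 and 3.21), and trap-2 had 4.32 and 3.12. The glycosylation subunit gene dad-1 had 3.003 and 2.92. Coats of vesicles that leave the ER (COPII) or return to it (COPI) had 9 of 23 (39.1%), with copd-1 (5.83 and 5.02), erd-2.1, copg-1 (3.79 and 3.75) and syx-5, a SNARE of ER to Golgi traffic (2.90 and 3.02). Rab GTPases and endosomal genes had 14 of 43 (32.6%), and 8 of 33 with the promoter window of 500 bp upstream and 100 bp downstream. They included vps-60 (4.73 and 3.77), rab-1, rab-18 (4.22 and 3.76) and the recycling gene rme-1 (4.57 and 3.27).

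Cytosolic folding and turnover differed in share. Cytosolic chaperones had 10 of 27, and 3 of 18 by nearest 5′ end, near the share of all genes. The chaperonin gene cct-1 had 5.09 and 5.50, hsp-90 had 4.29 and 4.998, the co-chaperone gene bag-1 had 4.19 and 4.83, and hsp-110 shared a peak with the proteasome gene rpn-3 (4.80 and 4.64). The peak of cct-1 was shared with mig-5 and that of hsp-90 with C47E8.4. The proteasome had 3 of 26 (11.5%), rpn-3, rpt-2 and pas-4. Autophagy and TOR genes had 4 of 21, with the Atg8 family genes lgg-2 (4.199 and 4.26) and lgg-1 (3.59 and 2.64), epg-7 and the GTPase gene rheb-1. The lysosome list had 5 of 26 (19.2%), all of them V-ATPase genes, led by vha-12 (3.78 and 3.51).

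Energy metabolism was split. Oxidative phosphorylation had 9 of 32 (28.1%), with the cytochrome oxidase genes cox-6B (4.84 and 4.63) and cox-5B (4.11 and 3.57), the ATP synthase gene atp-1 (3.71 and 3.75) and cyc-1, which encodes cytochrome c1 (3.23 and 2.64). Glycolysis and the TCA cycle had 4 of 29 (13.8%). The first was dld-1, a dehydrogenase subunit shared by mitochondrial enzyme complexes (5.64 and 6.05), and the others were cts-1, aco-2 and sucl-1. All 4 belong to mitochondrial oxidation and none to glycolysis, a split made after the genes were seen. Glycolysis genes with any peak were not counted apart, so their absence shows little. The peak of aco-2 was shared with eef-1B.1, whose 5′ end was nearer (29 bp against 302 bp). Lipid metabolism had 3 of 57 (5.26%), nhr-49, the HMG-CoA synthase gene hmgs-1 and acs-7, which lay at the boundary of the group. Chosen on replicate 1 alone the lipid list had 1, and with the window of 2000 bp and 500 bp it had 10 of 75.

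Regulators gave smaller numbers. bZIP factors had 5 of 19 (26.3%), with xbp-1, let-607 of the CREB3 family (3.18 and 3.20), atf-4, zip-2 (2.45 and 2.79) and cebp-1 (2.198 and 2.56). Cell cycle genes had 9 of 30. They included lin-54 (6.45 and 6.15), lin-53 (4.70 and 3.79) and lin-9 (3.81 and 3.70) of the DREAM complex, which represses cell cycle genes, and cdk-5 (3.73 and 4.25). The complex's E2F gene efl-1 (3.27 and 3.04) and its retinoblastoma gene lin-35 (2.54 and 2.89) were also among the 9. The grouping of these 5 genes was made after their values were seen. At 6 of the 9 cell cycle peaks a gene outside the list shared the window, so the target is not known. The peak of lin-54 was shared with rpl-12, that of lin-53 with nra-2, that of efl-1 with fbxa-90 and that of lin-35 with vps-51. Only lin-9 of the 5 had no other gene in the window. Heterochronic and microRNA genes had 4 of 14 (28.6%), puf-9, the microRNA cofactor gene nhl-2 (6.05 and 4.50), the Argonaute-binding gene ain-1 (3.74 and 3.21) and let-70. With the window of 500 bp and 100 bp this list had 1 of 6.

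The large receptor and factor families and the tissue marker lists gave low counts with the main window. Nuclear hormone receptors had 5 of 64 (7.81%), with nhr-68 first (2.88 and 3.56), then nhr-49, nhr-47, nhr-105 and nhr-1. Homeobox factors had 1 of 10 (ceh-38, 4.60 and 3.13, shared with malt-1), bHLH factors 2 of 6 (mdl-1 and hlh-11, with 1 when chosen on replicate 1 alone and 0 on replicate 2 alone), cuticle collagens 1 of 14 (col-38, shared with rpl-5) and the insulin pathway 1 of 10 (akt-2). Neuropeptides and insulin-like peptides had 1 of 8, ins-39, and histones 2 of 13, his-37 and htz-1, the H2A.Z gene (3.94 and 3.59). Splicing factors had 7 of 52 (13.5%), led by the Sm protein gene snr-4 (3.42 and 2.89) and prp-8 (3.10 and 2.96). Of the tissue markers, intestine had 0 of the 14 genes with a peak, neuron 0 of 9, body wall muscle 0 of 5, hypodermis 0 of 4 and pharynx 0 of 2, and the germline list had 2 of 3, the recombinase gene rad-51 and nos-3, with 1 when chosen on replicate 2 alone. GATA factors had 0 of 3, hedgehog-related genes 0 of 5, chemoreceptors 2 of 20 (1 when chosen on replicate 2 alone) and the Pumilio family 1 of 1, puf-9. At these sizes a count of 0 shows little beside the 14.4% of all genes with a peak.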

How the data were processed

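ChIP-seq peak lists of 2 replicates were used, in narrowPeak form on the ce11 build. The signal value and the −log10 q-value of each region are as deposited by the authors, and each summit is the deposited offset from the region's start. Per the deposited listing of files, regions were called on each replicate and on the pooled replicates and kept by the irreproducible discovery rate (IDR) procedure. No source used here gives the peak caller, the aligner or the read depth, and 0 columns of values were left out. The ce10 list served as an alternative for the counts by chromosome and for widths.

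Peaks were ranked by pooled signal, and the first 573 were taken. Summits were placed with the Ensembl 115 annotation of WBcel235, the assembly of ce11, and where trans-splicing removes the start of a transcript the annotated 5′ end is not the start of transcription. Shares were compared with the other peaks by two-sided Fisher's exact tests, adjusted by the Benjamini-Hochberg method within each family (13 motifs on both strands, 2080 sequences of 6 bases) with a threshold of 0.05. Wilson intervals and the intervals of odds ratios are at 95% and cover counting error only. Signal, width and replicate ranks follow from the choice of peaks and were not tested. The members and the 38 gene lists were chosen with earlier results of these data known. From each list up to 4 genes by pooled signal were named beyond the 20 strongest promoter peaks, with the peaks at the boundary, the strongest outside promoters and those with extreme replicate ratios. Printed windows leave out peaks over annotated UTRs and those on chromosome I. Python 3.11.15 was used with numpy 2.4.6, pandas 2.3.3, scipy 1.17.1 and matplotlib 3.10.9, and the code was tested on simulated data.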

Additional observations from a re-analysis of the deposited data

How the results depend on the processing

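Of 532 alternative values, 418 kept their direction and side of the threshold or, for counts, stayed within 1.5 times, 18 lost the call, 10 gained it, 72 moved and 14 changed direction. The 14 were past the threshold under neither setting. They were the 5′ UTR odds ratio (0.4996 without replicate 2 against 1.69 without replicate 1, and 0.585 with the window of 500 bp and 100 bp), chromosome X (1.005 without replicate 2 against 0.844 without replicate 1), chromosome IV (1.017 without replicate 1 against 0.874 without replicate 2, 1.005 with 0.5 of the group and 1.018 with 2 times its size), summits outside promoters on X (1.03 with the window of 2000 bp and 500 bp), TGACGTGT (0.865 with 0.5 of the group), GGGCGG (0.891 within 25 bp of the summit and 0.751 in GC bins), TGACTCA (1.23 within 25 bp and 1.12 within 100 bp), TTACGTAA (1.001 within 100 bp) and GAGAGAGA (0.877 in GC bins). The higher promoter share kept its call throughout, with odds ratios of 1.43 to 1.46 when either replicate was left out. With 0.5 of the group, its strongest peaks, the intron odds ratio was 0.638 (Fisher's exact adjusted p = 0.0942), 286 genes had a strong peak and 60 sequences of 6 bases were less frequent. With the group enlarged to 2 times its size the intergenic odds ratio was 0.801, that outside promoters on X was 0.718 and that of TGACGTGT was 2.16, each then past the threshold, with 1049 genes and 190 less frequent sequences. With a promoter window of 500 bp upstream and 100 bp downstream, the odds ratio outside promoters on X was 0.604 and passed. Within bins of GC content 32 sequences were more and 5 less frequent. Leaving out a replicate gave 77 to 115 less frequent sequences, with 77 when replicate 1 was left out. The cause of these changes was not tested. No paired analysis was possible because there was 1 group. Classes and motifs on ce10 were not run.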
